A study of Mus musculus with 2 samples.

Results

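Circular RNAs (circRNAs) of 9 host genes of the cohesin machinery were followed in sorted mouse intestinal cells. A circRNA forms when a splice donor is joined backwards to an upstream acceptor, and a read that crosses this back-splice junction identifies it. The members were every circRNA whose host gene, as written in the deposited lists, was Smc1a, Smc3, Rad21, Stag1, Stag2, Nipbl, Pds5a, Pds5b or Wapal (named Wapl in the annotation). These gave 102 of 31496 listed circRNAs, and 91 of the 26265 with at least 1 junction read. The genes are 9 of 8174 host gene names. Cells came from the intestine of Lgr5GFP-CreERT2 mice aged 2 months and kept under SPF (specific pathogen free) conditions, and flow cytometry separated them by Lgr5. Lgr5-positive cells gave the ISC-labelled library (intestinal stem cells), and Lgr5-negative cells gave the non-ISC-labelled library. Both libraries share the reporter strain, ribosomal RNA depletion and digestion with RNase R, an enzyme that degrades linear RNA. There is 1 library per group, and neither the sort gates nor the number of mice is stated. Differences below therefore compare 1 library with another, with nothing to check them against and no p-value.

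Cohesin is a ring that encircles DNA. Smc1a and Smc3 are its ATPase arms, Rad21 (the kleisin subunit) closes the ring, and either Stag1 or Stag2 binds to Rad21. The ring holds sister chromatids together until division and extrudes chromatin loops between divisions. Nipbl loads it together with Mau2, Wapal opens it to release it from DNA, and Pds5a and Pds5b bind the ring and act in both its maintenance and its release. Circles made from exons of these genes carry pieces of their coding sequence. Junction reads measure the circles alone, not the messenger RNA or the protein.

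The ISC-labelled library held 156582 junction reads and the non-ISC-labelled library 76331, so that 3 reads, the limit that a count of 0 allows, come to 19.2 and 39.3 reads per 1000000 junction reads. Ratios below are ISC over non-ISC shares of all junction reads, with 95% exact intervals that cover counting error only. A host gene or circRNA was called higher or lower when both libraries together held 10 or more of its reads, the ratio was 2-fold or more either way and the interval left out 1. Under this rule 10 or more reads in 1 library against 0 in the other always pass. The labels were not borne out by marker genes. All 12 lymphocyte markers with enough reads were higher in the ISC-labelled library (2710 reads over 18 genes, against 131 in the non-ISC-labelled library). Cd3e, Cd8a and Cd79a, on the same list, had no reads in either library. All 10 epithelial markers with enough reads were lower (10 reads over 14 genes, against 629), and Epcam and Cdh1 had no reads in the ISC-labelled library. Of 5 stem cell markers with enough reads 4 were lower and none higher (33 reads over 11 genes, against 171), with Lgr5 itself at 0 against 7. Of 7 proliferation markers, 3 were higher and none lower (1153 reads over 10 genes, against 161). The part of these cell type differences in the cohesin values was not tested, and a smaller share of cells of a type cannot be told apart from less circular RNA per cell.

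The junctions that the results turn on are shown as the last 20 bases of the final exon in lower case, followed by the first 20 bases of the first exon in capitals, 5′ to 3′ on the transcript strand. They were read from GENCODE M21 transcripts (GRCm38), and none of these joined sequences occurs in any of the 141767 transcripts of that release. Both Stag1 circles begin at the same acceptor of exon 10 and differ in the donor exon.
Stag1 exons 10 to 13 (chr9:100834418-100855904, plus strand): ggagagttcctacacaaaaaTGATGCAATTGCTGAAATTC
Stag1 exons 10 to 12 (chr9:100834418-100848738, plus strand): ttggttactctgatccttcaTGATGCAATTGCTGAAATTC
Smc1a exons 17 to 19 (chrX:152046660-152047968, plus strand): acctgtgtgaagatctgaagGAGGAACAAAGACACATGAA
Wapal exons 3 to 4 (chr14:34691682-34695105, plus strand): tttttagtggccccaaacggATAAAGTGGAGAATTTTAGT
Nipbl exons 21 to 25 (chr15:8325684-8330316, minus strand): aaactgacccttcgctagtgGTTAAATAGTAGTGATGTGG
Pds5b exons 7 to 8 (chr5:150728894-150736419, plus strand): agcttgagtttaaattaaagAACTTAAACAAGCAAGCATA

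Summed over each gene, circles of Smc1a, Stag1 and Stag2 were higher in the ISC-labelled library, and no member was lower. That is 3 of 9, beside 26.7% higher and 22.7% lower among all 2920 host genes with at least 10 reads, so the share of higher members lies near the background. All 9 members reached 10 reads. The members together had 637 junction reads, against 203 in the non-ISC-labelled library (ratio 1.53, 1.30 to 1.80), under the 2-fold rule. Their median ratio was 1.51, beside 1.12 for all host genes with at least 10 reads. Scaled to the sequencing totals implied by the deposited RPM values in place of junction reads, every ratio is 2.82 times as large, and 7 members were higher and none lower, beside 58.8% higher and 11.1% lower among all host genes.

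**Figure D1:**
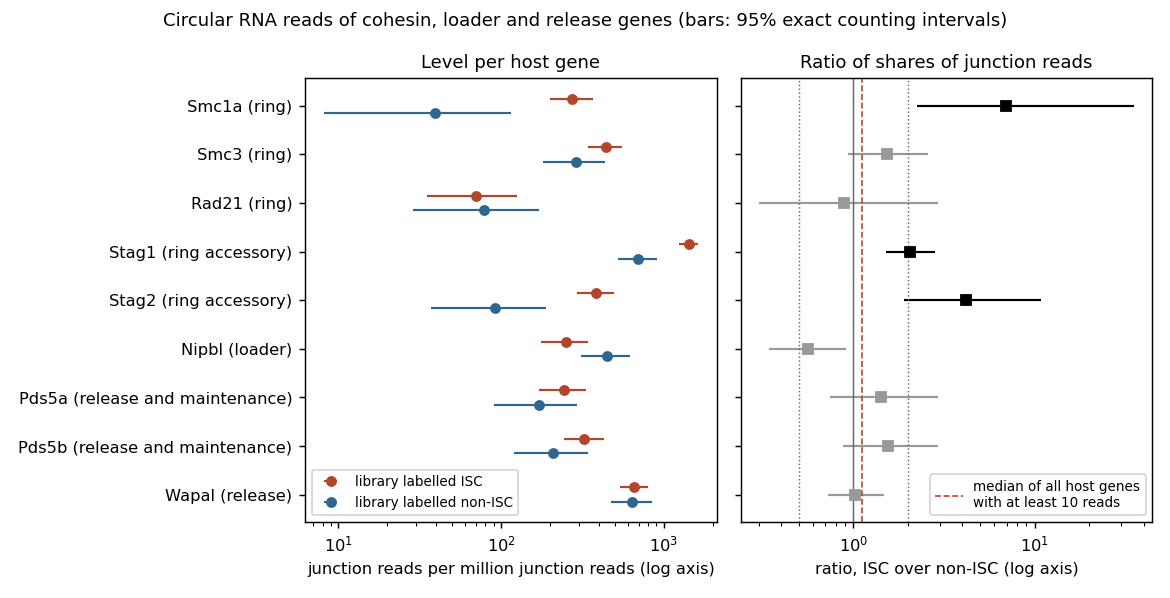
Left, junction reads per 1000000 junction reads (log axis) of each host gene in the ISC-labelled library (red, upper) and the non-ISC-labelled library (blue, lower), with 95% exact counting intervals. Right, the ratio ISC over non-ISC (log axis), black where called higher, with lines at 1 (solid), at 0.5 and 2 (dotted) and at the median of all host genes (dashed, 1.12): Smc1a, Stag1 and Stag2 lie above 2, and Nipbl at 0.559.

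Among the ring subunits, Smc1a was higher, and Smc3 and Rad21 did not pass. Smc1a, an arm of the ring encoded on the X chromosome, had 43 reads on 3 circles in the ISC-labelled library, against 3 reads on 1 circle in the non-ISC-labelled library, a ratio of 6.99 (2.24 to 35.2). Nearly all of its reads lay on the circle of exons 17 to 19, with 39 reads against 3 (ratio 6.34, 2.01 to 32.1). That circle is 411 nt of coding sequence, or 11.1% of the coding region. The count of 3 in the non-ISC-labelled library sits at the limit that a count of 0 allows, so the size of this difference is poorly bounded. In the deposited count column the ratios were 3.42 (2.45 to 4.89) for the gene and 3.62 for this circle, and both stayed called. By that column this circle did not lead in the ISC-labelled library, with a count of 182 beside 252 for exons 2 to 9, which had 3 junction reads.

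Smc3, the partner arm, did not pass, with 69 reads on 7 circles against 22 on 2 (ratio 1.53, 0.934 to 2.60). It had the same leading circle in both libraries, exons 8 to 9, with 56 reads against 20. This circle held 81.2% (69.9 to 89.6) of Smc3 reads in the ISC-labelled library and 90.9% (70.8 to 98.9) in the non-ISC-labelled library, shares with overlapping intervals. It is short enough to print whole, 294 nt of coding sequence from the acceptor of exon 8, with its first 20 bases in capitals, the end of the line joining back to its start.
Smc3 exons 8 to 9 (chr19:53620589-53621906, plus strand): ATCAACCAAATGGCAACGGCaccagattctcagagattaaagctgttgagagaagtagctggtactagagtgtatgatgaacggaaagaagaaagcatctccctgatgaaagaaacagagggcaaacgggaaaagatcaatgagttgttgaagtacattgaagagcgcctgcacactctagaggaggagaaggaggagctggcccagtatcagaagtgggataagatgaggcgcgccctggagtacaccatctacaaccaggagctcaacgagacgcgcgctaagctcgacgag

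Rad21, the subunit that closes the ring, was the thinnest member, with 11 reads against 6 (ratio 0.894, 0.303 to 2.94), and none of its circles reached 10 reads. Exons 2 to 6 gave a circle with 9 reads in the ISC-labelled library, and its entry in the non-ISC-labelled library held 0 junction reads. Another circle, exons 3 to 4, had 1 read in the ISC-labelled library, against 6 in the non-ISC-labelled library. The interval of the Rad21 ratio spans differences of more than 2-fold in both directions.

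Stag1 and Stag2, the alternative ring-binding subunits, were both higher but were built differently. Stag1 was the most abundant member in both libraries, with 223 reads on 18 circles against 53 on 13 (ratio 2.05, 1.51 to 2.82), and passes the 2-fold rule by a small margin. It ranked 126 among host genes in the ISC-labelled library and 265 in the non-ISC-labelled library. Stag2, an X-linked gene, had 60 reads on 5 circles against 7 on 2 (ratio 4.18, 1.91 to 10.8). The host genes nearest to Stag1 by level in the 2 libraries were Mark3 (227 reads against 54), Prrc2b (236 against 54) and Ppm1h (207 against 54), at distances of 0.0372, 0.0860 and 0.111 between log2 levels, with 1 added to each level. With 2 libraries this likeness is a description of level and ratio only.

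Most Stag1 reads came from circles that begin at exon 2 or exon 10. Exons 10 to 13 formed a circle of 411 nt, which had 63 reads in the ISC-labelled library, against 3 in the non-ISC-labelled library, a ratio of 10.2 (3.35 to 51.0), or 6.27 in the deposited count column. Its shorter form from the same acceptor, exons 10 to 12 with 303 nt, had 37 reads against 11 and did not pass (ratio 1.64, 0.819 to 3.56), while with median-ratio scaling it passed at 2.02. A circle of exons 2 to 4 (chr9:100705153-100738142), with 370 nt and the start codon, had 24 reads against 15 and did not pass (ratio 0.780, 0.393 to 1.60), but was called lower in the deposited count column at 0.478. A circle of exons 6 to 7 was also higher, with 18 reads against 1 (ratio 8.77, 1.39 to 366). Circles of exons 5 to 7 (15 reads against 4), 2 to 5 (11 against 2) and 2 to 7 (10 against 2) did not pass. Circles of exons 15 to 21 and of exons 6 to 9 were called higher with 11 and 10 reads, and since the other list lacks them no fold is given. Both calls follow from the rule, under which 10 or more reads against 0 always pass. With the deposited count column the call of exons 6 to 7 was lost. A further acceptor upstream of exon 2, at position 100663250 on an exon of other annotated Stag1 transcripts, had 3 reads against 7.

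By junction reads, the leading Stag1 circle differed between the libraries, a comparison that does not depend on library scaling. Exons 10 to 13 held 28.3% (22.4 to 34.6) of Stag1 reads in the ISC-labelled library and 5.66% (1.18 to 15.7) in the non-ISC-labelled library. Exons 2 to 4 held 10.8% (7.02 to 15.6) in the ISC-labelled library and led the non-ISC-labelled library with 28.3% (16.8 to 42.3). Both circles had reads in both libraries, and the intervals of both shares are separate. Stag1 was the only member with at least 50 reads in each library. Of all 199 host genes at that depth, 23.1% had another leading circle and 12.1% also had separate intervals for both shares. The leading circle of the ISC-labelled library depends on the measure. By the deposited count column it was the circle from the acceptor at 100663250 to the end of exon 4, with 40.7% of the Stag1 count, and exons 10 to 13 held 12.1%.

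**Figure D2:**
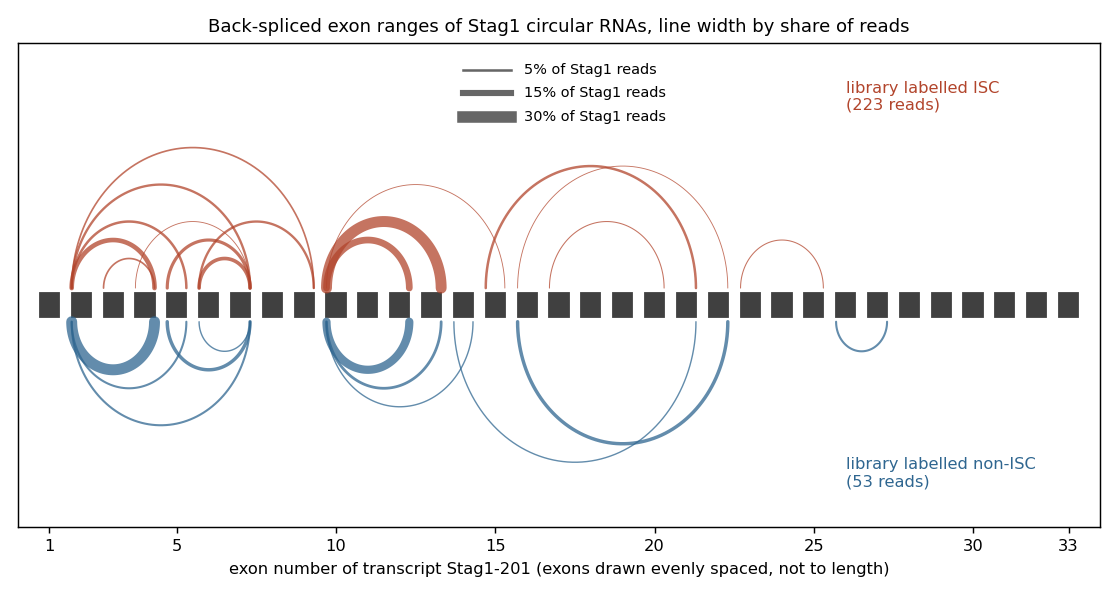
Exon ranges of 19 Stag1 circles on the Stag1 coding transcript of 33 exons, in the ISC-labelled library (red, above) and the non-ISC-labelled library (blue, below), with line width by share of the gene's reads in that library. Circles off this transcript are not drawn (5 and 7 reads), and the widest arcs are exons 10 to 13 above and exons 2 to 4 below.

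The same Stag1 reads also differed in the donor exon joined to a shared acceptor, so this is not a separate result. How often such intervals are separate at acceptors of other host genes was not computed. Of reads on Stag1 circles from exon 10, 62.4% (52.2 to 71.8) of 101 ended at exon 13 in the ISC-labelled library and 3 of 15 (4.33 to 48.1%) in the non-ISC-labelled library, with separate intervals. Exon 12 was the end for 36.6% (27.3 to 46.8) and 73.3% (44.9 to 92.2), whose intervals overlap. For Stag1 circles from exon 2, exon 4 was the end for 47.1% of 51 reads in the ISC-labelled library and 78.9% of 19 in the non-ISC-labelled library, with overlapping intervals.

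In Stag2, 51 of 60 reads in the ISC-labelled library and all 7 reads in the non-ISC-labelled library were on circles from exon 2. Its circle of exons 2 to 4 (chrX:42201855-42211242), 384 nt with the start codon, had 47 reads against 3 (ratio 7.64, 2.46 to 38.4). The shorter circle of exons 2 to 3 had no entry in the ISC-labelled library and 4 reads in the non-ISC-labelled library. The same exon range, 2 to 4, thus gave a circle in both Stag genes, with ratios of 7.64 for Stag2 and 0.780 for Stag1 whose intervals are separate. In the deposited count column the Stag2 circle had a ratio of 1.28 and did not pass.

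**Figure D3:**
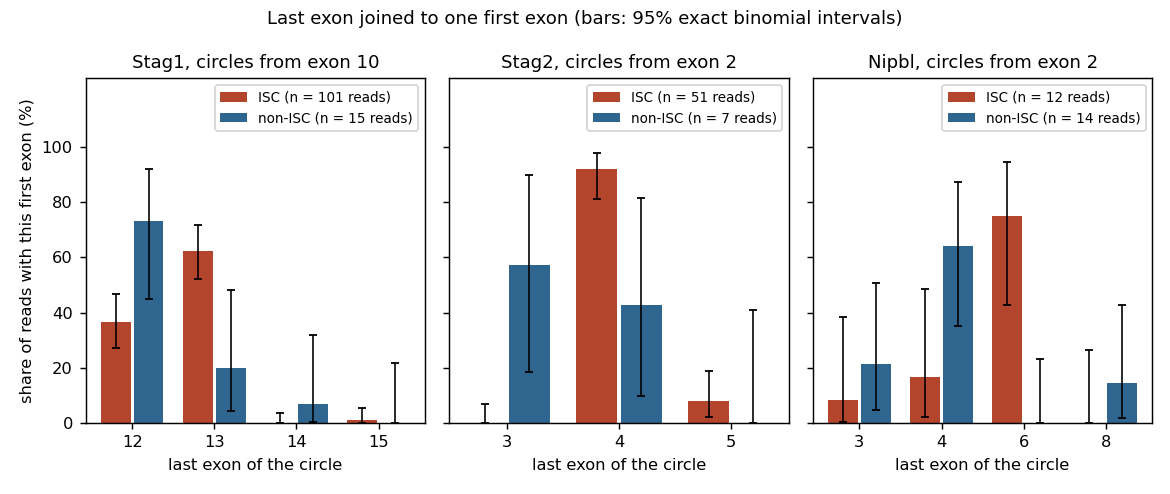
Share of reads (%) on circles from 1 first exon that end at each last exon, in the ISC-labelled library (red, left) and the non-ISC-labelled library (blue, right), with 95% exact binomial intervals and circles without an entry counted as 0. Stag1 circles from exon 10 end mostly at exon 13 in the ISC-labelled library (62.4%) and at exon 12 in the non-ISC-labelled library (73.3%).

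Nipbl, the loader, had the lowest ratio of the members by junction reads. It had 39 reads on 10 circles in the ISC-labelled library, against 34 on 8 in the non-ISC-labelled library, a ratio of 0.559 (0.344 to 0.913) whose interval lies below 1 but which missed the 2-fold rule. Scaled to library totals this ratio was 1.57 (0.969 to 2.57), so its direction depends on the scaling. In the deposited count column it was 0.983 (0.824 to 1.18), above Pds5a at 0.667 and Wapal at 0.533. Over circles with reads in both libraries it was 0.370 (0.193 to 0.701), which passes. Reads were spread over the long gene, and the circle of exons 21 to 25 had 9 reads against 8 (ratio 0.548, 0.188 to 1.63), called lower in the deposited count column at 0.0597. Exons 37 to 42 gave 7 against 5.

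From the acceptor of Nipbl exon 2, which precedes the start codon, the share of reads ending at exon 6 differed between the libraries. A circle of exons 2 to 4 (chr15:8369461-8374102) was lower in the ISC-labelled library, with 2 reads against 9 (ratio 0.108, 0.0114 to 0.523), and was the leading Nipbl circle in the non-ISC-labelled library. A longer circle, exons 2 to 6, had 9 reads in the ISC-labelled library, level with exons 21 to 25 as the leading circle there, and no entry in the non-ISC-labelled library. Exon 6 was thus the end for 9 of 12 reads (42.8 to 94.5%) from exon 2 in the ISC-labelled library and 0 of 14 in the non-ISC-labelled library, which allows up to 23.2%, if the missing entry stands for 0 reads. Exon 4 was the end for 2 of 12 reads and 9 of 14, with overlapping intervals. The call of exons 2 to 4 was lost with library totals (ratio 0.305), with junction reads halved and with a minimum of 20 reads.

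Pds5a and Pds5b, paralogs that bind the ring, did not pass as genes. Pds5a had 38 reads against 13 (ratio 1.42, 0.742 to 2.92), and Pds5b had 51 reads against 16 (ratio 1.55, 0.872 to 2.92). Over circles with reads in both libraries these ratios were 0.905 and 0.682, and in the deposited count column Pds5b was called higher at 2.75. With 9 reads against 5, exons 3 to 5 were the leading Pds5a circle in the ISC-labelled library. Exons 27 to 28 had no entry there and were the leading circle in the non-ISC-labelled library, with 6 reads.

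In Pds5b, 2 circles that meet at exon 7 went opposite ways. A circle of exons 7 to 8, with 222 nt, had 1 read in the ISC-labelled library, against 11 in the non-ISC-labelled library (ratio 0.0443, 0.00103 to 0.305). This call was lost with junction reads halved and with a minimum of 20 reads, and the ratio was 0.271 in the deposited count column. It held 1.96% (0.0496 to 10.4) of Pds5b reads in the ISC-labelled library and 68.8% (41.3 to 89.0) in the non-ISC-labelled library, with separate intervals. Exons 2 to 7 (chr5:150716403-150728974) gave a circle with 13 reads in the ISC-labelled library, called higher, and no entry in the non-ISC-labelled library. That call follows from the rule, under which 10 or more reads against 0 always pass. The leading circle in the ISC-labelled library, exons 14 to 17, had 15 reads against 3 and did not pass (ratio 2.44, 0.690 to 13.1).

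Wapal, the release factor, did not pass as a gene, with 103 reads on 11 circles against 49 on 10 (ratio 1.02, 0.722 to 1.47). Its leading circle, exons 3 to 4, was higher in the ISC-labelled library, with 58 reads against 13 (ratio 2.17, 1.18 to 4.33). With 1172 nt, all coding, it carries 32.6% of the coding sequence. It held 56.3% (46.2 to 66.1) of Wapal reads in the ISC-labelled library and 26.5% (14.9 to 41.1) in the non-ISC-labelled library, with separate intervals. Exons 16 to 18 had 17 reads against 13 (ratio 0.637, 0.292 to 1.43), level with exons 3 to 4 in the non-ISC-labelled library. The call of exons 3 to 4 was lost when junction reads were halved (2.28, 0.931 to 6.72), and in the deposited count column its ratio turned to 0.112. Circles ending at exon 11 had no reads in the ISC-labelled library and 8 in the non-ISC-labelled library.

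**Figure D4:**
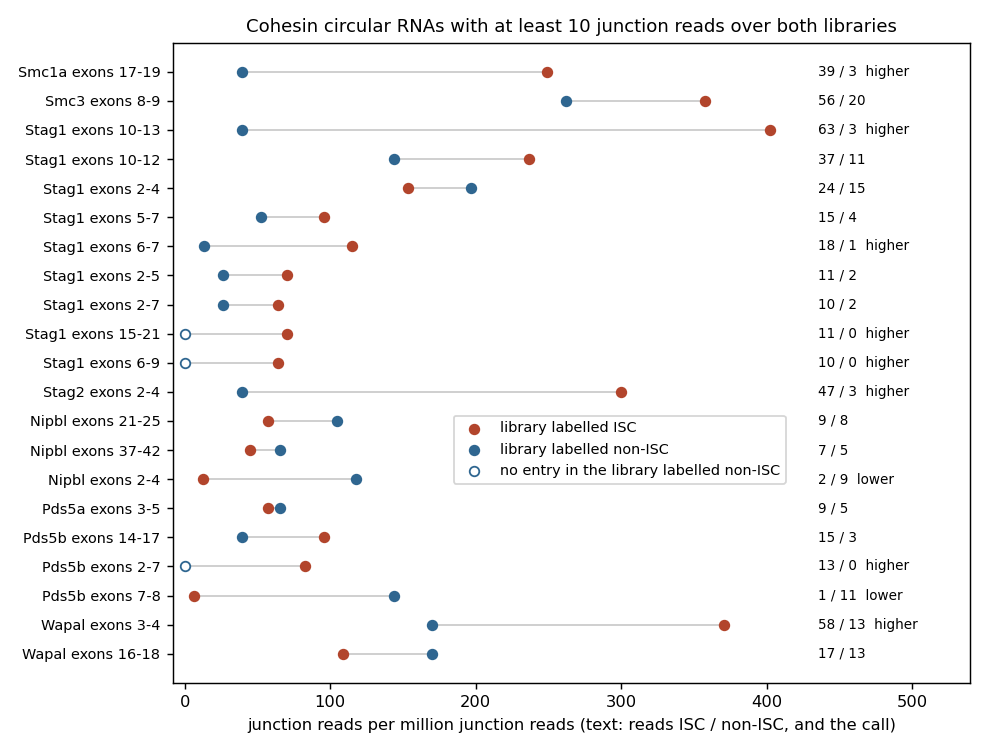
Level of each of the 21 cohesin circles with at least 10 reads over both libraries, in the ISC-labelled library (red) and the non-ISC-labelled library (blue, open where there is no entry), in junction reads per 1000000 on the axis, with read numbers and calls at the right. The largest difference in level is that of Stag1 exons 10 to 13 (63 reads against 3), and Nipbl exons 2 to 4 and Pds5b exons 7 to 8 are called lower.

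Over these 21 circles, 8 were higher, 2 lower and 11 did not pass, beside 32.4% higher and 23.0% lower among all 3659 circRNAs with at least 10 reads. They held 74.1% of the members' reads in the ISC-labelled library and 64.5% in the non-ISC-labelled library. Of the 21, 18 (85.7%, 63.7 to 97.0) had reads in both libraries, beside 69.5% of all circRNAs at that depth, which lies inside the interval. Of the 8 higher circles, 5 had reads in both libraries. The other 3 had no entry in the non-ISC-labelled library, so their calls follow from the rule. The background holds such circles too, as 786 of 3638 other circRNAs at that depth had reads in the ISC-labelled library only. Scaled to library totals 15 of the 21 circles were higher and 1 lower, beside 58.5% and 11.6% of all. By the deposited count column 28 of 56 cohesin circles with a count of at least 10 were higher and 13 lower, beside 35.5% and 48.2% of all circRNAs so tested.

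The division of cohesin reads among the 9 genes is free of library scaling. Smc1a made up 6.75% (4.93 to 8.99) of cohesin reads in the ISC-labelled library and 1.48% (0.306 to 4.26) in the non-ISC-labelled library. Stag2 made up 9.42% (7.26 to 12.0) and 3.45% (1.40 to 6.98) in the same order, and Nipbl 6.12% (4.39 to 8.27) and 16.7% (11.9 to 22.6). For these 3 of the 9 genes the intervals are separate. This holds for junction reads, and the division was not computed for the deposited count column. There the ratio of Wapal (0.533) was below that of Nipbl (0.983), so which genes differ may depend on the measure. Smc1a and Stag2 were a larger part and Nipbl a smaller part of the reads in the ISC-labelled library. The shares are parts of 1 whole, so a larger part for some genes makes others smaller. How often such intervals are separate among other host genes was not computed. Stag1 made up 223 of 637 reads (31.3 to 38.9%) and 53 of 203 (20.2 to 32.7%), and Wapal 16.2% (13.4 to 19.3) and 24.1% (18.4 to 30.6), with overlapping intervals. Smc3 was at 10.8% in both.

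**Figure D5:**
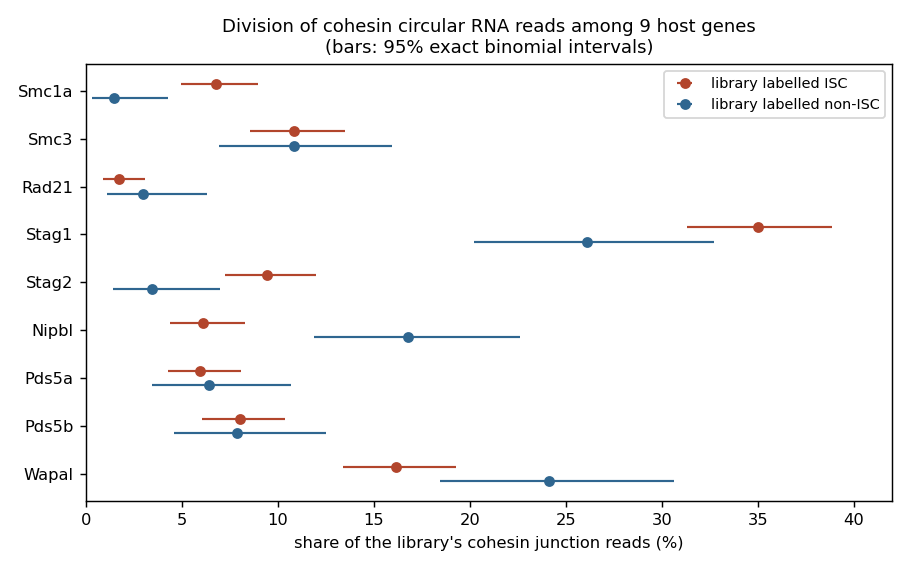
Share (%) of each library's cohesin junction reads that came from each host gene, in the ISC-labelled library (red, upper) and the non-ISC-labelled library (blue, lower), with 95% exact binomial intervals. The intervals are separate for Smc1a, Stag2 and Nipbl.

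Of the 6 members with at least 10 reads in each library, Smc3 and Wapal had the same leading circle in both. Stag1, Nipbl, Pds5a and Pds5b had another one. In the non-ISC-labelled library Wapal exons 3 to 4 tied with exons 16 to 18 at 13 reads. There Nipbl exons 2 to 4 led exons 21 to 25 by only 9 reads against 8. Among all 1101 host genes at that depth, 34.1% had another leading circle, and 7.9% also had separate intervals for both leading shares. Of the 6, Stag1 alone met that second condition. With junction reads halved, 1 of 4 members had another leading circle.

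In structure, 82 of the 91 cohesin circles (90.1%, 82.1 to 95.4) had both ends on exons of a single coding transcript, against 68.9% (68.3 to 69.4) of the other circRNAs. The members were chosen by the names of coding genes, while the others include circRNAs without a named host gene. The part of that choice in the gap was not tested. Circles with 1 or 2 reads made up 35.2% of the cohesin circles and 55.8% of the others. With at least 10 reads it was 21 of 21 (83.9 to 100) against 91.1%, which lies inside the interval. Exonic cohesin circles had a median of 4 exons and 489.5 nt, against 3 exons and 476 nt for other circRNAs. None started at exon 1, beside only 42 of the 18026 exonic circles among the other circRNAs. Circles from exon 2 numbered 16, from 7 genes, and 15 of them contain the start codon. They held 22.3% (19.1 to 25.7) of cohesin reads in the ISC-labelled library and 20.2% (14.9 to 26.4) in the non-ISC-labelled library. As a share of exonic circles, 19.5% (11.6 to 29.7) started at exon 2, against 26.2% (25.5 to 26.8) of the others.

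Genes that act on cohesin were described from a list of 26 symbols, of which 11 had circRNA reads and 7 had at least 10. Of these 7, 1 was higher, 1 lower and 5 did not pass, with a median ratio of 1.54. Mau2, the partner of Nipbl in the loader, was higher, with 42 reads against 2 (ratio 10.2, 2.66 to 87.3). By junction reads this interval is separate from that of Nipbl. The Mau2 count of 2 in the non-ISC-labelled library lies below the limit of 3 reads stated above, so the size of its difference is poorly bounded. In the deposited count column the Nipbl ratio was 0.983, and no Mau2 ratio was computed there. Esco1, which acetylates Smc3 and so stabilises the ring, had the most reads, at 551 against 174 (ratio 1.54, 1.30 to 1.84), and did not pass. Espl1 (separase), the protease that cuts Rad21 at anaphase, had 108 against 50 (ratio 1.05, 0.746 to 1.5). Ctcf, the DNA-binding protein at which cohesin loops stop, had 49 against 12, a ratio of 1.99 (1.04 to 4.11) just under the 2-fold rule.

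Circles of other complexes built on SMC proteins were higher wherever they had enough reads. Of 19 symbols of condensin, the Smc5/6 complex and Smchd1, 14 had reads, and all 6 that reached 10 reads over both libraries were higher, beside 26.7% of all host genes, with a median ratio of 5.48. Smchd1, a silencing factor of the inactive X chromosome, had 66 reads against 6 (ratio 5.36, 2.34 to 15.1). Smc4, the condensin arm, had 48 against 5 (ratio 4.68, 1.87 to 15.1), and Smc5 had 32 against 3 (ratio 5.20, 1.63 to 26.5). In the non-ISC-labelled library the 6 genes had only 0 to 6 reads each, around the limit of 3 reads. The sizes of their differences are therefore poorly bounded, and 10 or more reads against 0 pass by the rule itself. The 19 symbols summed gave 4.83 (3.14 to 7.78), and the cohesin members 1.53 (1.30 to 1.80). These intervals cover counting error and not the spread among genes. Single cohesin members ran from 0.559 (Nipbl) to 6.99 (Smc1a), and a difference between the lists was not tested.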

How the data were processed

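Per the labels' protocols, RNA of sorted cells went through removal of ribosomal RNA, RNase R digestion, fragmentation and paired sequencing. FastQC, Trimmomatic 0.36 and mm9 are listed, per the submitters' processing notes. For aligner and caller: not given in the sources used here. Per the file headers each deposited circRNA has a junction count, a further count and its RPM. How reads were assigned to the deposited count is not given, and count divided by RPM gives the implied library totals, 52636694 and 72271995 reads. The junction count was used here, and a circRNA without an entry counted as 0, which may not hold for every one.

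Junction starts met GENCODE M21 (GRCm38) exon starts for 73.1% of circRNAs, and for at most 0.0794% when shifted by 1 base, so coordinates are given as GRCm38, counted from 1. Exon numbers follow, per gene, the basic coding transcript that holds both ends of most reads. Ratios have exact conditional (Clopper-Pearson) intervals, and shares exact binomial ones (Python 3.11.15, SciPy 1.17.1). List medians add 0.5 read to each library. The call rule was tested on simulated data.

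All 9 members are named, with each of their circRNAs of at least 10 reads and each leading circRNA. Other circles were picked after their values were seen, mostly where they share a splice site with these. From the list of genes acting on cohesin and that of other SMC complexes, up to 4 with most reads are named. Members and lists were chosen with earlier results of these data known.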

Additional observations from a re-analysis of the deposited data

Results flagged for a closer look

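A signal was seen outside the measure used. In the non-ISC-labelled library, 15 of 59 cohesin entries (25.4%) had 0 junction reads but carried deposited counts of 1 to 76, which sum to 281 reads. Among all entries of that library 33.4% had 0 junction reads. None of the cohesin entries in the ISC-labelled library had 0 junction reads. Of the 15 entries, 4 had junction reads in the ISC-labelled library, 20 in all, among them Rad21 exons 2 to 6 and a Pds5a circle of exons 24 to 28. No source used here states how the deposited count was assigned, and its part in the junction values was not tested.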

How the results depend on the processing

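Each group has 1 library, so no library could be left out. No paired analysis was possible because each group has 1 library. Direction depended most on scaling and on the measure. With library totals 7 members were higher, the summed ratio was 4.31 (3.67 to 5.07), and 15 circles were higher and 1 lower. Ratios below 1 that turned above 1 were Rad21 at 2.52, Nipbl at 1.57, and the circles Wapal exons 16 to 18 at 1.80, Nipbl exons 37 to 42 at 1.92, Nipbl exons 21 to 25 at 1.54, Pds5a exons 3 to 5 at 2.47 and Stag1 exons 2 to 4 at 2.20. Median-ratio scaling turned Rad21 to 1.10 and Pds5a exons 3 to 5 to 1.08. These follow from the scaling itself. With the deposited count column, Pds5a turned to 0.667 and Wapal to 0.533. Circles that turned were Wapal exons 3 to 4 (0.112), Smc3 exons 8 to 9 (0.836), Pds5b exons 14 to 17 (0.851), Stag1 exons 2 to 7 (0.746), Nipbl exons 37 to 42 (11.2) and Pds5a exons 3 to 5 (2.87). There 28 of 56 circles tested were higher and 13 lower, beside 35.5% and 48.2% of all 18640 circRNAs tested on that column, and the share of Stag1 exons 10 to 13 in the ISC-labelled library was 12.1%. On that column 8 of 9 members had another leading circle, but the share among all host genes was not computed there. So the 8 of 9 cannot be read as particular to cohesin. The cause of these changes was not tested. Restricted to circles with reads in both libraries, Pds5a turned to 0.905 and Pds5b to 0.682, and 1 member, Nipbl, was lower. With a 1.5-fold rule 1 member, again Nipbl, was lower. Halving junction reads left 3 circles higher and 0 lower, and 1 of 4 members with another leading circle. A minimum of 20 reads left 4 higher and 0 lower, and with no minimum 7 were lower. In the main setting 8 of 21 were higher and 2 lower. The minimum changes which circles are tested, and halving also widens intervals. The 3 higher members stayed 3 under all but the library totals and the deposited count, where they were 7 and 4. Placing circles by position in place of name moved the summed ratio to 1.54. At 3 reads, the limit for a count of 0, Smc1a and several circles of the non-ISC-labelled library cannot be ranked.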

Other observations

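Smc1a and Stag2, the members with the highest ratios, are both on the X chromosome, which was noticed after their values were seen. The X chromosome had 70 host genes with 10 or more reads, of which 25 (35.7%) were higher in the ISC-labelled library and 10 (14.3%) lower, and the median ratio was 1.60. Among 2850 host genes on other chromosomes, 754 (26.5%) were higher and 653 (22.9%) lower, with a median ratio of 1.11. The 70 genes include Smc1a and Stag2, no interval was computed for these shares, and a tie to the chromosome was not tested. Of the 9 cohesin circles without both ends on exons of a coding transcript of the basic set, 6 had neither end on an exon, and these had 13 reads, all in the ISC-labelled library. Their spans were 224 to 409 nt, and each had at most 4 reads. Reads in the ISC-labelled library only were common at any structure, with 47 of all 91 cohesin circles and 14016 of 26174 other circRNAs.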
